A study of Mus musculus with 14 samples.

Results

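Among the 24984 genes counted in a mouse RNA sequencing study, 10 were examined as genes of macrophages or of antigen presentation by MHC class II: Cd74, H2-Ab1, H2-Aa, H2-Eb1, Apoe, Lyz2, C1qa, C1qb, Csf1r and Adgre1. They were chosen by name, with their levels, their covariation between libraries and both mutant-to-control comparisons already seen, so those values are given as a description; where a fit over all genes gives calls, their number among the 10 stands beside the share over all genes and supports nothing further. All 10 were in both count tables. The study sorted c-KIT-positive cells, labelled as differentiating spermatogonia, from testes of C57BL/6J mice and asked how gene expression depends on Cbx2, which encodes a histone-binding subunit of Polycomb complex PRC1. In the deletion experiment, 2 Cbx2-deleted libraries came from animals of the genotype Rosa26-CreERT2; Cbx2 Flox/Δ, which had 3 intraperitoneal injections of 200 µL tamoxifen at 20 mg/mL in corn oil. The 2 control libraries came from Rosa26-CreERT2; Cbx2 Flox/+ animals, which had corn oil alone. All 4 animals thus carried the recombinase and a floxed allele, and the controls kept a wild-type one. Genotype and tamoxifen differed together. Rosa26 drives expression in nearly every cell type, macrophages included, and where recombination took place in these animals was not measured. In the 23KRA experiment, 5 libraries came from mice homozygous for Cbx2 23KRA, an allele in which basic residues (lysine, arginine) of the CBX2 compaction region are replaced by alanine, and 5 from wild-type (+/+) mice, all untreated. Each library is described as 1 animal, and no source used here gives ages.

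Macrophages are resident immune cells of the testis interstitium and of the tubule wall, and are not expected in a pure germ cell sort. MHC class II molecules are heterodimers of an alpha and a beta chain that show peptides from engulfed protein to helper T cells. They are made mainly by dendritic cells, B cells and activated macrophages, and the factor CIITA switches on their genes together with that of the invariant chain. H2-Aa and H2-Ab1 encode the alpha and beta chains of the mouse I-A molecule and H2-Eb1 the beta chain of I-E. Cd74 encodes the invariant chain, which fills the peptide groove until the molecule reaches the endosome. Csf1r is the receptor for the growth factors CSF1 and IL-34 on which macrophages depend. Adgre1 encodes F4/80, the classical surface marker of mouse macrophages. C1qa and C1qb encode chains of complement C1q, Lyz2 the lysozyme of myeloid cells, and Apoe a lipid carrier that macrophages share with other testis cells.

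MHC class II promoters are known for a shared module of an X box and a Y box, and the stretches upstream of H2-Aa and H2-Eb1 are shown because these genes were high in the same libraries. Both are from RefSeq on GRCm38.p6, run 5′ to 3′ from position -150 to -1 before the gene start, and have in capitals the X box core (searched as CTNGCAAC, where N is any base) and then the Y box (CTGATTGG). H2-Aa lies on the minus strand at chr17:34287824-34287973 and H2-Eb1 on the plus strand at chr17:34305717-34305866.
H2-Aa: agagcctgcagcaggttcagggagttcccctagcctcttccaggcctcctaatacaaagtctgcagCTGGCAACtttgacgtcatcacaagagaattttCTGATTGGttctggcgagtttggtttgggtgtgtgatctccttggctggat
H2-Eb1: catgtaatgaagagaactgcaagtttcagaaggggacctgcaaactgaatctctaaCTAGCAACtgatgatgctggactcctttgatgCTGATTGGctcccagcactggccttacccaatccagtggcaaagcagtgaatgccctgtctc

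In both promoters the X box core came first, with 25 bases between it and the Y box in H2-Aa and 24 in H2-Eb1. Over the positions from -250 to -1 of 32851 promoters, 2.84% held the X box core and 3.83% the Y box on either strand. Only 13 promoter windows (0.0396%) held the X box core followed by the Y box on the gene's strand, and both class II promoters were among them. The Y box contains the CCAAT box read on the other strand, and CCAAT on either strand was in 33.8% of promoters. These letters were chosen after both sequences had been seen. For comparison, the promoter of C1qb, on the minus strand at chr4:136886201-136886350, held neither box. Its capitals mark GAGGAA, the core bound by the myeloid factor PU.1, which 23.3% of promoters held on either strand.
C1qb: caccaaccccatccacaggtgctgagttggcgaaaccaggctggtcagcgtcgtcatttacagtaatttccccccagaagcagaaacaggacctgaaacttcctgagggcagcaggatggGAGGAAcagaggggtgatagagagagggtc
Promoters of 5 of the 10 genes were matched, those of H2-Aa, H2-Eb1, C1qb, Apoe and Lyz2. Apoe had GAGGAA in windows of 2 start sites, and Lyz2 had none of the searched motifs. A match of letters is a description and does not show that a factor was bound.

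The deletion libraries held 28169990 to 31166500 counts and the 23KRA libraries 14562564 to 19814511 counts, so 3 counts amounted to 0.0953 to 0.106 CPM (counts scaled to library size) and 0.147 to 0.208 CPM. The library kits differed between the experiments, which were therefore scaled and fitted apart and are not tested against each other. Genes expressed in spermatogonia, among them Stra8, Dazl and Ddx4, summed to 6519 to 7529 CPM in the deletion and 3726 to 4051 CPM in the 23KRA libraries. Not all of them are particular to the differentiating stage, and Dazl alone averaged 3124 CPM in deletion controls. No pair of replicates agreed within counting noise (chi-square per degree of freedom from 11.8 to 43.5). Cbx2 itself stood at 93.8 and 97.6 CPM without and 78.5 and 86.5 CPM with the deletion; counts are per gene, and no source used here says which exons the deletion removes. Fewer macrophages in a sort and less RNA per macrophage cannot be told apart in these bulk samples.

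The genes differed widely in level. Per length of exon, in RPKM (CPM per kilobase of exon), H2-Ab1 and Cd74 were the most abundant in deletion controls, at 11.1 ± 0.177 and 10.1 ± 0.101 RPKM (SD, n = 2). Apoe followed at 6.94 ± 1.95 RPKM (SD, n = 2), then H2-Eb1 at 3.33 ± 0.730, Lyz2 at 3.10 ± 2.77, H2-Aa at 2.03 ± 0.605 and C1qb at 1.94 ± 0.519 RPKM. C1qa, at 0.573 ± 0.249 RPKM, Adgre1, at 0.236 ± 0.0839 RPKM, and Csf1r, at 0.177 ± 0.219 RPKM, were the lowest. From H2-Eb1 to C1qb, and for Adgre1 and Csf1r, neighbours in this order differed by less than their spread. In 23KRA wild types Cd74, Apoe and H2-Ab1 led, at 9.42 ± 13.3, 7.44 ± 3.90 and 7.03 ± 6.71 RPKM (SD, n = 5), with a spread that leaves their order unsettled. C1qa, Adgre1 and Csf1r were thus the lowest in deletion controls, and H2-Ab1, Cd74 and Apoe the highest. The macrophage genes did not all lie below the class II genes, since Lyz2 and C1qb were near H2-Aa in these controls. In 23KRA wild types C1qb (1.87 RPKM), C1qa (1.72) and Lyz2 (1.22) had higher means than H2-Aa (1.00 ± 0.833 RPKM), within their spread.

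**Figure D1:**
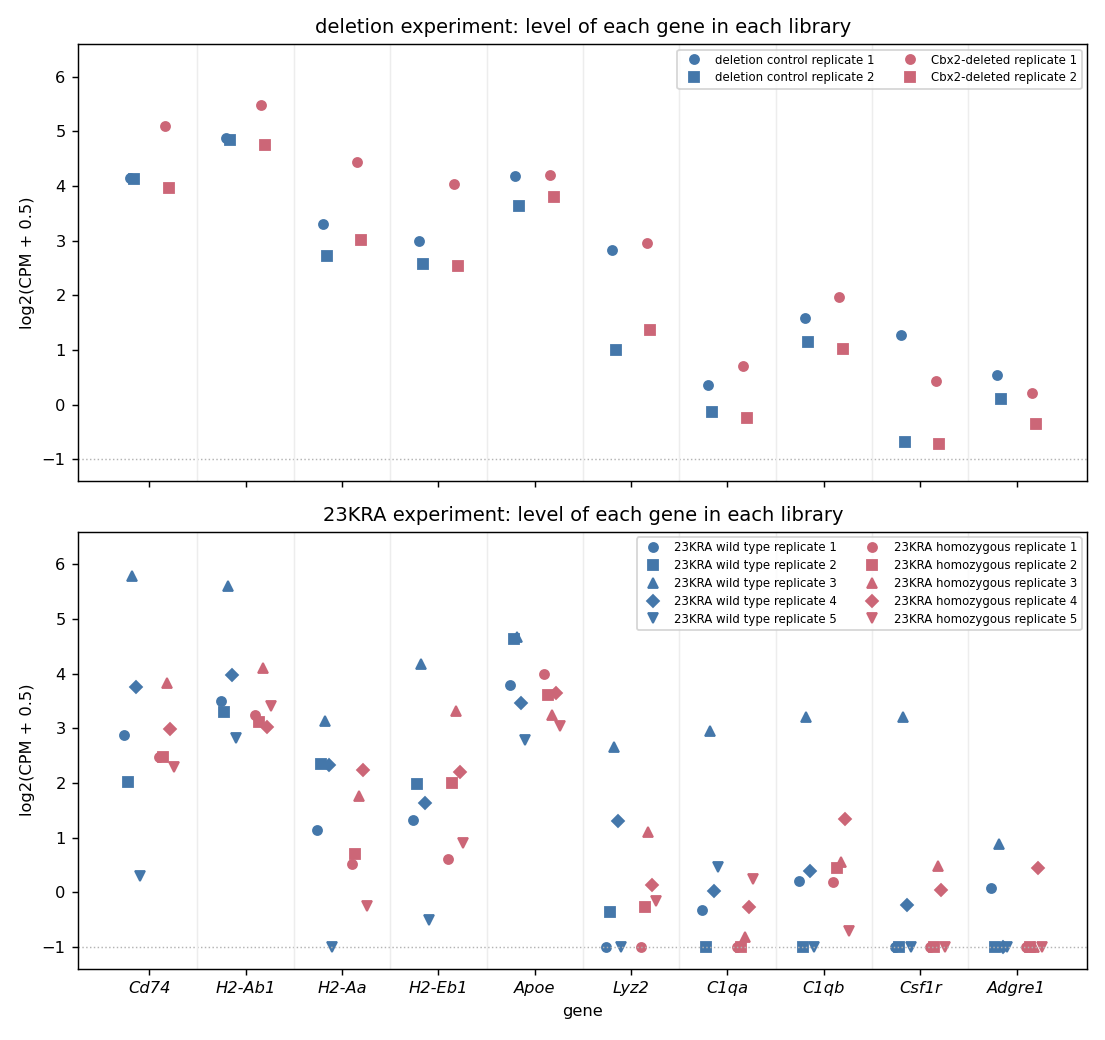
Level of each of the 10 genes in each of the 14 libraries as log2(CPM + 0.5), with the deletion experiment above and the 23KRA experiment below; colours mark groups, symbols mark replicates, and the dotted line is a count of 0. The circles of replicate 1 lie above the squares of replicate 2 within each deletion group for all 10 genes, and the blue triangle of wild-type replicate 3 is the highest 23KRA library for all 10.

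In the deletion experiment the class II genes were high in 1 library. Cd74 was at 17.1 and 16.9 CPM in the controls (replicates 1 and 2, in this order throughout) and at 34.0 and 15.0 CPM after deletion. The controls were nearly equal, and the deleted animals lay above and below them. H2-Ab1 had 28.8 and 28.1 CPM without deletion, against 44.4 and 26.5 CPM with it. H2-Aa had 9.35 and 6.10 CPM against 21.2 and 7.60 CPM, and H2-Eb1 7.47 and 5.46 CPM against 16.0 and 5.30 CPM. For all 4 genes deleted replicate 1 was the highest library, while deleted replicate 2 was near or below the controls, so the groups overlapped. The summed level of the 4 was 62.7 and 56.6 CPM in control libraries and 116 and 54.4 CPM after deletion.

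The macrophage genes followed the replicate number more than the genotype. Lyz2 was at 6.66 CPM in control replicate 1 and 7.31 CPM in deleted replicate 1, against 1.49 and 2.09 CPM in replicate 2 of either group. Csf1r was at 1.91 and 0.843 CPM in replicate 1 of controls and deleted animals and at 0.127 and 0.105 CPM in replicate 2, where it rested on 4 and 3 counts. The first control library was 15.0 times the second for this gene, and the first deleted library 8.06 times the second. C1qb had 2.51 and 1.72 CPM without deletion, against 3.44 and 1.53 CPM with it, and C1qa 0.779 and 0.413 CPM against 1.12 and 0.349 CPM. Adgre1 had 0.956 and 0.572 CPM against 0.667 and 0.279 CPM. Apoe varied least, with 17.8 and 11.9 CPM in control libraries and 17.8 and 13.5 CPM after deletion. Replicate 1 was above replicate 2 within both groups for all 10 genes, where 29.3% of the 16725 genes tested showed that pattern. The labels do not say what a replicate number marks.

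Class II and macrophage genes therefore did not peak in the same deletion library to the same extent. The 5 genes Lyz2, C1qa, C1qb, Csf1r and Adgre1 summed to 12.8 and 13.4 CPM in replicate 1 of controls and deleted animals and to 4.32 and 4.36 CPM in replicate 2. For every 100 counts of the 4 class II genes there were 20.4 counts of these 5 in control replicate 1, 11.6 in deleted replicate 1, and 7.63 and 8.003 in replicate 2 of controls and deleted animals. Csf1r and Adgre1 were highest in control replicate 1 and the other 8 genes in deleted replicate 1, the library that was highest for 30.3% of all genes tested. Csf1r overlaps Hmgxb3 on the opposite strand and H2-Eb1 an antisense gene, and no source used here says whether counting used the strand. Hmgxb3 was at 40.9 to 49.0 CPM in these libraries and did not share the replicate pattern of Csf1r. Lyz1, a near-identical neighbour of Lyz2, had at most 4 counts in any library.

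**Figure D2:**
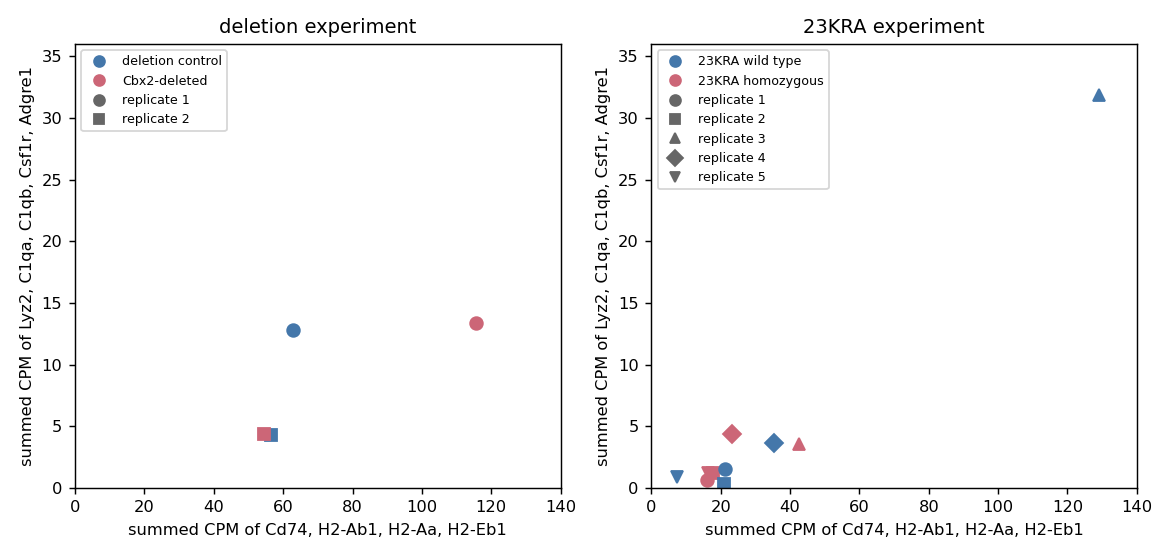
Summed CPM of the 5 macrophage genes against summed CPM of the 4 class II genes, 1 point per library, with the deletion experiment on the left and the 23KRA experiment on the right. Both replicate 1 libraries of the deletion experiment lie near 13 CPM of macrophage genes but apart in class II (62.7 and 116 CPM), and wild-type replicate 3 lies far from the other 23KRA libraries in both.

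In the 23KRA experiment wild-type replicate 3 held the highest level of all 10 genes, although it was the highest library for only 14.4% of the 14208 genes tested. Cd74 was at 6.89, 3.53, 54.9, 13.0 and 0.736 CPM in wild-type replicates 1 to 5 and at 5.06, 5.07, 13.7, 7.40 and 4.41 CPM in homozygous replicates 1 to 5. Every homozygous library lay inside the wild-type range, and wild types held both the highest and the lowest library. H2-Ab1 was at 10.8, 9.35, 48.4, 15.2 and 6.56 CPM in wild types and at 8.99, 8.17, 16.7, 7.60 and 10.1 CPM in homozygotes. H2-Aa was at 1.71, 4.57, 8.28, 4.50 and 0 CPM in wild types and at 0.933, 1.12, 2.89, 4.23 and 0.343 CPM in homozygotes. The 0 in wild-type replicate 5 is a count of 0. H2-Eb1 was at 2.01, 3.46, 17.6, 2.60 and 0.201 CPM in wild types and at 1.03, 3.49, 9.43, 4.10 and 1.37 CPM in homozygotes. In both groups the third replicate was highest for Cd74, H2-Ab1 and H2-Eb1, but the labels do not tie equal numbers to each other.

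The same library stood further out for the macrophage genes. Csf1r was at 8.73 CPM (136 counts) in wild-type replicate 3, at 0.346 CPM in wild-type replicate 4 and at a count of 0 in wild-type replicates 1, 2 and 5. In homozygotes Csf1r was at 0.895 and 0.528 CPM in replicates 3 and 4 and at a count of 0 in the other 3. C1qa was at 7.26 CPM in wild-type replicate 3, with all 9 other libraries at or below 0.870 CPM, and C1qb at 8.73 CPM against at most 2.05 CPM. Lyz2 was at 5.78 CPM against at most 1.96 CPM, and Adgre1 at 1.35 CPM against at most 0.859 CPM, with a count of 0 for Adgre1 in 7 of the 10 libraries. The ratio of wild-type replicate 3 to the next highest library was 9.76 for Csf1r, 8.34 for C1qa, 4.27 for C1qb, 4.01 for Cd74, 2.90 for H2-Ab1 and 1.03 for Apoe. Apoe was at 13.4, 24.3, 24.9, 10.6 and 6.36 CPM in wild types and at 15.5, 11.7, 9.02, 12.1 and 7.78 CPM in homozygotes, so that 2 wild-type libraries shared its top. Hmgxb3, on the strand opposite Csf1r, was also highest in wild-type replicate 3, at 87.4 CPM against at most 73.5 CPM elsewhere, and how far reads were shared between these 2 genes was not tested.

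Within the class II group, H2-Ab1 kept a level where its partners were nearly absent. Wild-type replicate 5 had 98 counts of H2-Ab1 beside 11 of Cd74, 3 of H2-Eb1 and 0 of H2-Aa. The number of H2-Ab1 counts per Cd74 count was 8.91 there, between 0.881 and 2.65 in the other 23KRA libraries, and 1.31 to 1.77 in the deletion libraries. It was lowest in wild-type replicate 3, the library with most of either. Apoe did likewise, with 8.64 counts per Cd74 count in wild-type replicate 5 and 0.454 in wild-type replicate 3. Counts of different genes depend on their length, but within the 23KRA libraries these ratios compare the same pair of genes and the same kit. The deletion libraries were made with another kit, so their ratios are given only as a description.

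In the fits of genotype alone to all libraries, none of the 10 genes was called in either comparison. In the deletion experiment all 10 had enough counts to be fitted, and 0 had an adjusted p under 0.05 in edgeR's quasi-likelihood test, DESeq2 or limma-voom, where by edgeR 0.012% of the 16725 genes tested did. At an unadjusted p under 0.05 the count was 3 of 10, and 793 of all 16725 genes. The log2 fold changes of deleted over control animals were 0.53 (SE 0.22) for Cd74, 0.32 (SE 0.17) for H2-Ab1, 0.90 (SE 0.28) for H2-Aa and 0.72 (SE 0.29) for H2-Eb1. They were 0.079 (SE 0.18) for Apoe, 0.22 (SE 0.43) for Lyz2, 0.31 (SE 0.55) for C1qa and 0.24 (SE 0.33) for C1qb. Csf1r and Adgre1 had values below 0, of -1.08 (SE 0.74) and -0.68 (SE 0.54). The median of the 10 was 0.28, with 8 above 0, and the median of all genes tested was -0.0044, with 8201 above 0. Groups did not overlap, with the deleted animals higher, for 0 of the 10 genes and 15.6% of all genes, and with the deleted animals lower for 0 and 17.5%.

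These values rested on single libraries. Without deleted replicate 1 the median of the 10 was -0.37 and the log2 fold change of Cd74 was -0.18. Without deleted replicate 2, where the lone deleted library is taken to vary like the controls, 73 genes were called in all and 4 of the 10, which were the class II genes with log2 fold changes from 0.64 for H2-Ab1 to 1.46 for H2-Aa. Without control replicate 1, 11 genes were called in all, H2-Aa and Lyz2 among them (log2 fold changes 1.25 and 1.66) and Csf1r turned from -1.08 to 1.87. Without control replicate 2 the median was -0.049 and none was called.

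**Figure D3:**
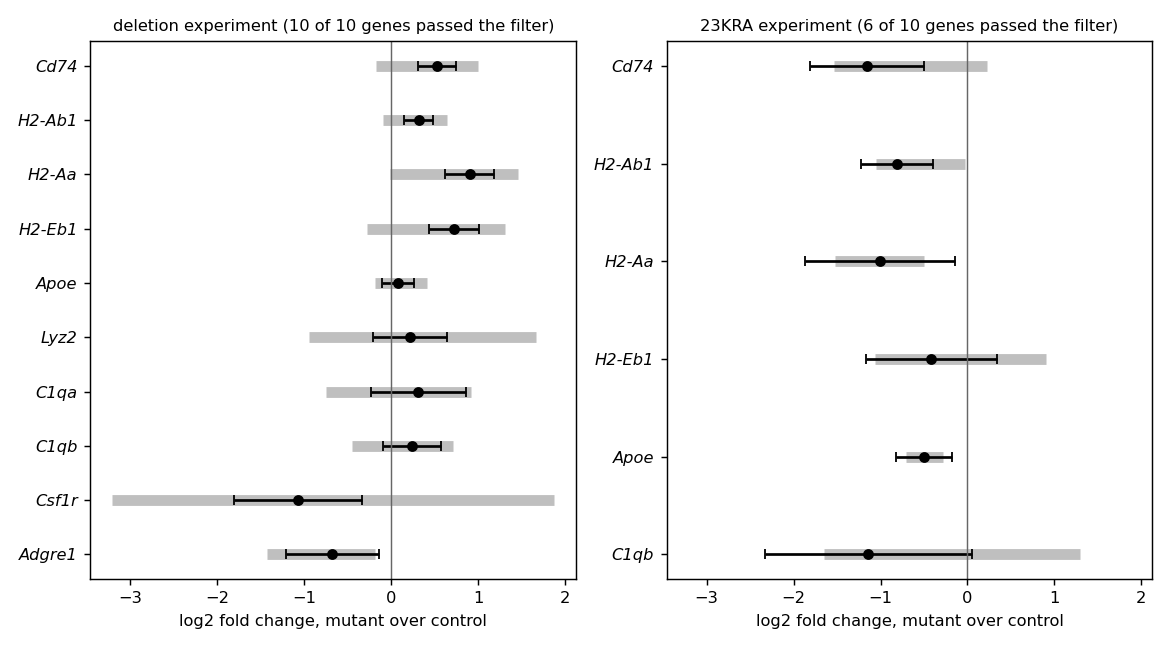
Fitted log2 fold change of mutant over control animals (black points, bars are 1 SE) for the genes that passed the filter on low counts, 10 for the deletion and 6 for 23KRA, with the range over fits that leave out 1 library in grey. The grey range crosses 0 for 9 of the 10 genes in the deletion experiment and for 3 of the 6 in the 23KRA experiment.

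In the 23KRA experiment 6 of the 10 genes passed the filter on low counts, and Lyz2, C1qa, Csf1r and Adgre1 did not. Of the 6, 0 had an adjusted p under 0.05, as did 0% of the 14208 genes tested, and 0 had an unadjusted p under 0.05, against 432 of all genes. DESeq2 and limma-voom called 0 genes as well. The log2 fold changes of homozygotes over wild types were -1.15 (SE 0.66) for Cd74, -0.81 (SE 0.41) for H2-Ab1, -1.004 (SE 0.86) for H2-Aa, -0.42 (SE 0.76) for H2-Eb1, -0.50 (SE 0.32) for Apoe and -1.14 (SE 1.19) for C1qb. Their median was -0.91, beside 0.0034 for all genes tested. Without wild-type replicate 3 the median was 0.10, Cd74 had 0.23, H2-Eb1 0.90 and C1qb 1.30, while H2-Ab1 had -0.025. The groups overlapped for all 6 genes; with homozygotes higher they did not overlap for 0.436% of all genes, and with homozygotes lower for 0.274%. In wild types the means were 15.8 ± 22.3 CPM for Cd74 and 18.1 ± 17.2 CPM for H2-Ab1, and in homozygotes 7.13 ± 3.85 and 10.3 ± 3.67 CPM (SD, n = 5). In the 4 wild types other than replicate 3 they were 6.05 ± 5.30 and 10.5 ± 3.62 CPM (SD, n = 4).

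Other genes of macrophages moved with the 10 in part. Of 24 such genes, 16 could be fitted for the deletion and 8 for 23KRA, and none passed (9 of 16 and 2 of 8 above 0; median log2 fold change 0.15 and -0.41). Their summed level was set by Lgmn, a lysosomal protease at 72.2 to 88.2 CPM in deletion libraries, and Aif1, at 98.9 to 122 CPM there, neither of which followed the members there; Aif1 was also highest in wild-type replicate 3, at 28.0 CPM against 1.65 to 24.8 CPM in the other 23KRA libraries. Without these 2 the remaining 22 genes summed to 20.5 and 14.5 CPM in control libraries and 27.0 and 14.9 CPM after deletion. In the 23KRA experiment they summed to 84.5 CPM in wild-type replicate 3 and to 8.18 to 18.0 CPM in the other 9 libraries. Mrc1, the mannose receptor of macrophages, was at 22.2 CPM in wild-type replicate 3 and at 0.229 to 6.29 CPM elsewhere (log2 fold change -1.84, SE 0.63; edgeR adjusted p = 1.00). Removing Lgmn and Aif1 was decided after their levels were seen.

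The abundant regulators and processing genes of the class II pathway were not highest in the libraries where the class II genes were, while some scarce ones were. Of 15 genes on this list, 10 were fitted for the deletion and 5 for 23KRA, and none passed (5 of 10 and 2 of 5 above 0; medians 0.0020 and -0.073). The most abundant were Rfxap and Rfx5, subunits of the factor that binds the X box in many cell types, and Ifi30, a lysosomal thiol reductase. Rfxap was at 65.6 to 88.2 CPM in deletion and 57.2 to 88.7 CPM in 23KRA libraries. Rfx5 was at 15.1 to 17.7 and 13.4 to 31.6 CPM, and Ifi30 at 22.0 to 26.3 and 23.2 to 34.6 CPM. Ciita, the switch specific to class II genes, had at most 26 counts in any library and a count of 0 in wild-type replicate 3. In the deletion experiment it was at 0.453 ± 0.0110 CPM in controls and 0.543 ± 0.127 CPM after deletion (SD, n = 2). H2-DMa, of the same list, was at 7.72 ± 0.450 CPM in controls and 7.10 ± 0.336 CPM after deletion. In 23KRA H2-DMa was at 3.03 ± 1.81 CPM in wild types and 4.37 ± 2.79 CPM in homozygotes (SD, n = 5). Cd86, a costimulatory ligand on antigen-presenting cells, was at 0.460 and 0.159 CPM in control libraries and 1.69 and 0.976 CPM after deletion (log2 fold change 2.11, SE 0.53; edgeR adjusted p = 0.485), and in 23KRA at 5.91 CPM in wild-type replicate 3 and at most 2.06 CPM elsewhere. H2-DMb1, a chain of the peptide-loading molecule H2-M, was at 1.62 CPM in deleted replicate 1 and 0.635 to 0.885 CPM in the other deletion libraries, and at 1.03 CPM in wild-type replicate 3 and at most 0.0660 CPM in the other 23KRA libraries. Cd80, a relative of Cd86, was at 3.34 CPM in wild-type replicate 3 and at most 1.45 CPM in the others, but at only 0.351 CPM in deleted replicate 1. In the deletion experiment 4 of the 10 fitted genes of this list were highest in deleted replicate 1 and 4 in control replicate 2. The 10 genes of MHC class I and its peptide supply did not pass either (10 fitted in the deletion, median -0.033; 6 in 23KRA, median -0.16). H2-K1, a class I heavy chain found on most cells, was at 270 to 331 CPM in deletion libraries and at 92.9 to 145 CPM in 23KRA libraries, with 131 CPM in wild-type replicate 3. Among ligands, complement and lipid transport genes (15 genes, 13 and 7 fitted, medians 0.089 and -0.12) none passed, and the most abundant was the cholesterol exporter Abca1, at 33.5 to 42.5 and 74.9 to 101 CPM.

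Leukocyte genes that both myeloid and lymphoid cells use were highest in the same 2 libraries as the class II genes, but not otherwise in the same order. All 8 were fitted in the deletion experiment and had log2 fold changes above 0 (median 0.70), none of them called. They summed to 17.0 and 13.3 CPM in control libraries and 27.1 and 15.9 CPM after deletion, and in 23KRA to 17.3 CPM in wild-type replicate 3 against 3.35 to 10.4 CPM in the others. Homozygous replicate 1 was second for these genes but had only 16.0 CPM of class II genes, and homozygous replicate 3, second for class II at 42.7 CPM, had 6.47 CPM of them. In 23KRA 3 of the 8 could be fitted, with 2 above 0 and a median log2 fold change of 0.083. The actin-bundling gene Lcp1 was at 6.08 CPM in deleted replicate 1 and 3.02 to 4.25 CPM in the other deletion libraries. Cytip, at 5.198 against 2.10 to 3.19 CPM, and Coro1a, at 6.95 against 4.81 to 5.18 CPM, were also highest there. Dendritic cell genes summed to 23.0 CPM in deleted replicate 1 against 15.7 to 17.6 CPM in the other deletion libraries, and to 12.9 CPM in wild-type replicate 3, within the 8.69 to 17.8 CPM of the other 23KRA libraries. Zbtb46 made up most of that sum, while Itgax had at most 5 counts in a deletion library and a count of 0 in 9 of the 10 23KRA libraries. Of the 8 dendritic genes, 5 were fitted for the deletion, all with log2 fold changes above 0 (median 0.29), none called. Deleted replicate 1 was the highest library for 4 of these 5, and for 30.3% of all genes tested. In 23KRA 2 were fitted, 1 of them above 0, and 0 were highest in wild-type replicate 3. The parts that these cell types have in the class II values were not tested.

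**Figure D4:**
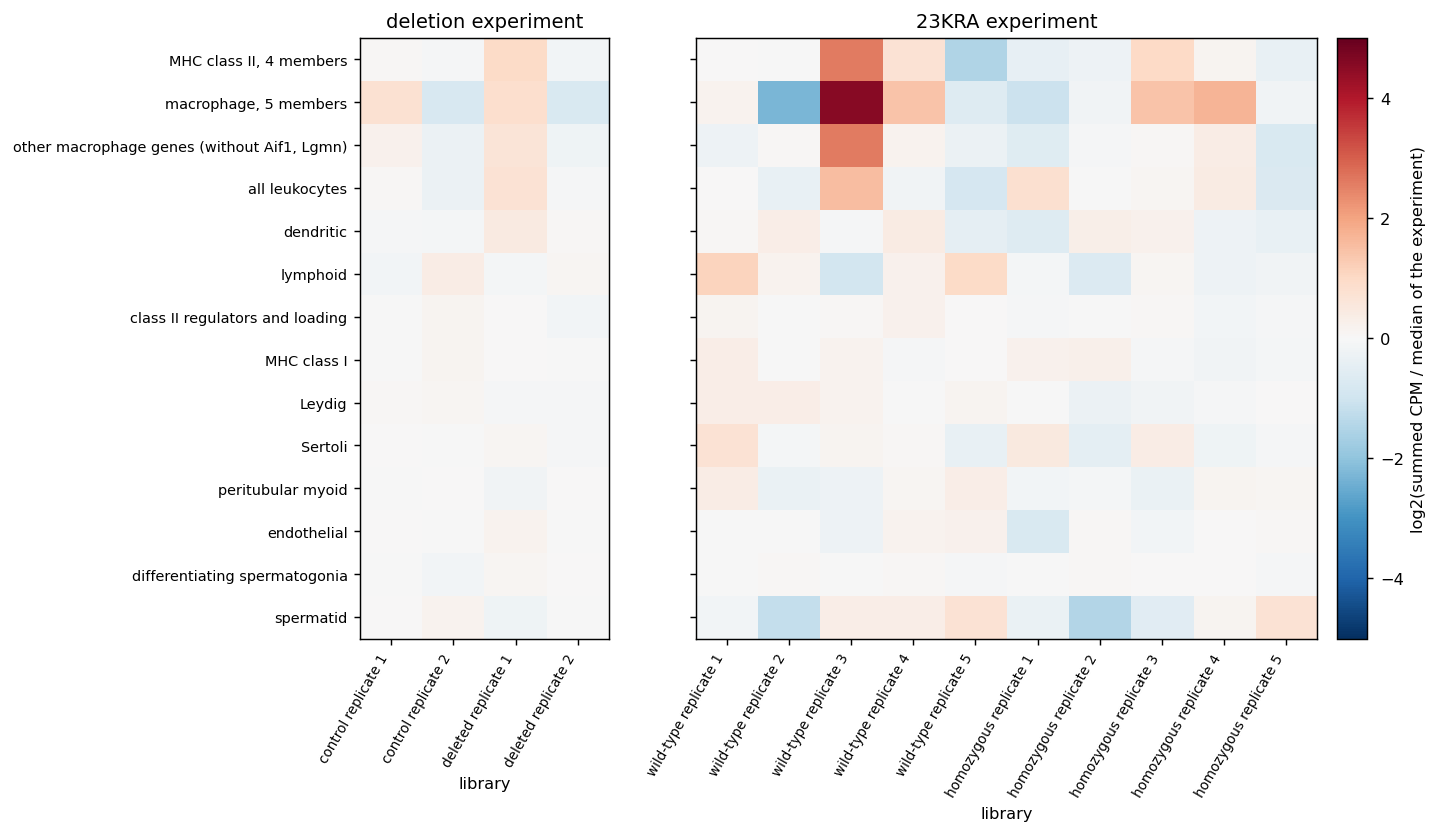
Summed CPM of each gene list in each library as the log2 ratio to the median library of its experiment, for the deletion (left, 4 libraries) and 23KRA (right, 10 libraries) experiments. The macrophage rows are high in wild-type replicate 3, by up to 4.56 on this scale, while the rows for Leydig, Sertoli, myoid, endothelial and spermatogonial genes lie between -0.27 and 0.16 there.

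By summed level, markers of other cell types did not single out wild-type replicate 3, while several sums were also highest in deleted replicate 1. Few abundant genes made up much of some sums, so a flat sum says little about the scarce genes of its list. In 23KRA wild types Mylk averaged 64.0 CPM, where the myoid list averaged 84.0 CPM. Clu averaged 32.3 CPM there, where the Sertoli list averaged 64.0 CPM. Neutrophil genes summed to at most 1.45 CPM in any library, with S100a8 at a count of 0 in all 14. Mast cells also carry KIT, and genes of a mast cell list summed to 5.02 to 5.95 CPM in deletion and 0.286 to 5.27 CPM in 23KRA libraries, with 2.505 CPM in wild-type replicate 3; their part in these values was not tested. The protease gene Cpa3 had at most 5 counts in any library, and Hdc, the most abundant gene of that list, was at 4.84 to 5.56 CPM in deletion libraries. Globin genes had a count of 0 in all 14 libraries. Lymphoid genes summed to 3.28 CPM in wild-type replicate 3, the lowest of the 23KRA libraries, and all of it was Cd3e. Leydig genes summed to 167 and 172 CPM in control libraries, 156 and 158 CPM after deletion and 67.3 to 104 CPM in 23KRA libraries, with 91.6 CPM in wild-type replicate 3. Within that list Cyp17a1, an enzyme of androgen synthesis, fell by 1.86 on the log2 scale in deleted animals (SE 0.26; edgeR adjusted p = 0.00315), and it was the only gene of the other lists called in either comparison. It was at 7.37 and 4.76 CPM in control libraries and 1.86 and 1.46 CPM after deletion, so the groups did not overlap. Deleted replicate 1 was the highest deletion library for Sertoli genes (177 CPM, the others 161 to 169) and endothelial genes (44.4 CPM, the others 38.5 to 40.1). It was also the highest for the spermatogonial genes (7529 CPM, the others 6519 to 7138). The same library was the lowest for myoid genes (64.9 CPM) and spermatid genes (2335 CPM, the others 2677 to 3035). In wild-type replicate 3 Sertoli genes were at 64.0, myoid genes at 66.9, endothelial genes at 17.7 and spermatid genes at 779.9 CPM, each within the range of the other 23KRA libraries. What part these differences have in the levels of the 10 genes was not tested.

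Over the 10 23KRA libraries, the genes on no list whose levels followed the summed level of the 10 most closely, after removal of group means, were Grcc10 (Spearman's rho 0.98), Katna1 (0.94), Alox12b (0.92), Mrpl49 (0.92) and Syne2 (0.92). They were the highest of 12693 genes searched, and they are given as a description. Grcc10 lay between 44.3 and 63.6 CPM, a far narrower range than that of the members, and only Grcc10, Alox12b and Syne2 had their highest level in wild-type replicate 3.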

How the data were processed

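The authors deposited unnormalized read counts, 1 row per gene symbol and 1 column per library. Per the submitters' processing notes, featureCounts, Subread 1.5.0, STAR 2.5.3, Trim Galore 0.4.3 and SAMtools 1.4.1 were used with mm10; annotation, strand setting and treatment of multimapped reads were not given in the sources used here. Deletion libraries, per the labels' protocols, came from 20 ng RNA with a SMART-Seq mRNA kit (7 and 11 PCR cycles) and 23KRA libraries with a stranded total RNA kit (5 and 16 cycles). Amplified reads are not independent molecules, so counting limits cover counting error only.

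Each table was fitted alone on all genes kept by filterByExpr with R 4.3.3 and edgeR 4.0.16 (TMM scaling, quasi-likelihood F test, two-sided, Benjamini-Hochberg at 0.05), with limma 3.58.1 and DESeq2 1.42.0 as alternatives. CPM uses total counts times the TMM factor. Exon lengths and gene overlaps are from GENCODE on GRCm38. In simulated counts with 2-fold changes in randomly drawn genes, 74.2% were recovered in the deletion (16512 genes) and 67.7% in the 23KRA design (13766 genes). The simulation drew genes of all levels and held no shift shared by the genes of 1 library. These shares check the fit and do not tell how often a change in the 10 genes would be called. The p-values and SEs use a spread between libraries, each taken as 1 animal, that is moderated across all genes. A gene's own spread can be larger than this, as for H2-Aa at 14.4 ± 9.60 CPM in deleted animals (SD, n = 2). For such genes the printed SEs and p-values can understate the spread between animals.

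The 10 genes, the lists and the alternatives were chosen with earlier results of these data known. Named genes are the 10, up to 3 of each other list (called ones first, then those of highest mean CPM) and 5 genes of most similar level. Genes named beside these, such as Ciita, H2-DMa, Cd86, H2-DMb1, Cd80, Itgax, S100a8 and Cpa3, were chosen after their values were seen. March1 was matched through an older symbol. One gene that this rule names is not reported here.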

Additional observations from a re-analysis of the deposited data

Results flagged for a closer look

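Among 26 sets of 5 values (each gene and 3 sums in each 23KRA group), 12 had 1 library set apart from the rest by more than 0.71 of the whole range, Dixon's critical value. Chance gives about 1 in 20 only for normally distributed values not seen before, while some of these sets hold low counts and counts of 0. These levels were also known when the genes were chosen, and the sums hold the same genes. The number is therefore a description and no test. In 9 of them that library was wild-type replicate 3. Its values were 54.9 CPM for Cd74 (next 13.0), 48.4 for H2-Ab1 (next 15.2), 17.6 for H2-Eb1 (next 3.46), 7.26 for C1qa (next 0.870), 8.73 for C1qb (next 0.808) and 8.73 for Csf1r (next 0.346). The sums in that library were 185.9 CPM for the 10 genes, 129.2 for the 4 class II genes and 31.9 for the 5 macrophage genes. Homozygous replicate 3 stood apart for H2-Ab1 at 16.7 CPM and for the class II sum at 42.7 CPM. Homozygous replicate 4 stood apart for Adgre1 at 0.859 CPM, where the other 4 homozygous libraries had a count of 0. The genes of 1 library share its cells, so these 12 are not independent.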

How the results depend on the processing

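The number of genes called in the deletion experiment, 2, was 1 with scaling by total counts, with DESeq2 and with limma-voom, and 8 without a filter on low counts. Leaving out 1 library gave 2 to 73 genes, 0 to 4 of the 10 members and 1 to 5 genes of the other lists. With the replicate number as a block, 62 genes, 1 member (H2-Aa) and 5 genes of the other lists were called in the deletion and 2 genes in the 23KRA experiment. The labels do not say that equal numbers share a day or litter. Deviations from the group mean correlated at 0.22 between same-numbered libraries of the deletion. With only 2 libraries per group, both pairs give this 1 value by construction. In 23KRA the 5 pairs correlated at -0.018 to 0.25, and 4 of 5 wild types correlated best with their own number. Fits without 1 library spanned 0 for these log2 fold changes in the deletion: Cd74 from -0.18 to 1.00, H2-Ab1 from -0.098 to 0.64, H2-Aa from -0.016 to 1.46, H2-Eb1 from -0.28 to 1.31, Apoe from -0.19 to 0.41, Lyz2 from -0.94 to 1.66, C1qa from -0.75 to 0.92, C1qb from -0.45 to 0.71 and Csf1r from -3.21 to 1.87. In 23KRA they did so for Cd74 (-1.53 to 0.23), H2-Eb1 (-1.06 to 0.90) and C1qb (-1.66 to 1.30). H2-Eb1 in 23KRA was at 0.12 with limma-voom, 0.14 with the replicate block and 0.26 without replicate 3 of both groups (added after the data were seen), and C1qb at 0.81, 0.84 and 1.27. The median of the members was -0.24, -0.28 and -0.19 in these fits, and the causes of the differences were not tested. Other scalings changed no direction of a member. Levels under about 0.2 CPM rest on 3 or fewer counts in 23KRA libraries.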
